A study of Mus musculus with 8 samples.

Results

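The family of miR-130 and miR-301 was followed in mouse liver during repeated CCL4 injury. Its 4 members, mmu-miR-130a, mmu-miR-130b, mmu-miR-301a and mmu-miR-301b, were taken by name from the 567 mouse miRNAs on the array. They were selected on measured values of these arrays, in which mmu-miR-301a stood higher with CCL4 while mmu-miR-130a did not, so their differences between treatments are descriptions and carry no test. Adult male C57BL/6J mice, 8 weeks old, were injected intraperitoneally with CCL4 dissolved in olive oil, or with olive oil alone. There were 2 injections a week during the first 4 weeks and 1 a week afterwards, and livers were taken at week 4, 6 or 8. CCL4, carbon tetrachloride, is turned into a toxic radical by hepatocytes, and repeated doses scar the liver. Liver RNA was measured on single-colour Agilent miRNA arrays, 5 with CCL4 (2 each at weeks 6 and 8, and 1 at week 4) and 3 with olive oil (1 per week). The sources used here do not say whether an array held 1 mouse or a pool, so n counts arrays and p-values measure only the spread between these arrays.

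MiRNAs repress messenger RNAs by pairing mainly through the seed, the bases near their 5′ end, so miRNAs with one seed are predicted to share many targets. The family of miR-130 and miR-301 shares its seed among members made from separate hairpins, and it has been studied in vascular remodelling and fibrosis, with Pparg among its reported targets. Hepatocytes supply most liver RNA, whereas stellate cells, the pericytes that turn into collagen-producing myofibroblasts, are a small part of it. In whole liver, fewer cells of a type and less RNA per cell cannot be told apart.

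The mature sequences are shown because the members are grouped by their seed, while the remaining bases decide how well an array probe can tell them apart. RefSeq held 3 of the 4 mature members, and mmu-miR-301b is given by name alone. The sequences are printed 5′ to 3′ with bases 2 to 8, the seed, in capitals.
mmu-miR-130a: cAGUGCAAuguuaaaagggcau
mmu-miR-130b: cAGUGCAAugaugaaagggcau
mmu-miR-301a: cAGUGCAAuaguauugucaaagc
mmu-miR-721, not a member: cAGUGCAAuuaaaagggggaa
On GRCm38.p6, mmu-miR-130a lay at chr2:84741116-84741137 on the minus strand, mmu-miR-130b at chr16:17124071-17124092 on the minus strand, and mmu-miR-301a at chr11:87113054-87113076 on the plus strand. The hairpin of mmu-miR-301a lay within the span of the protein-coding gene Ska2. The Mir130b and Mir301b hairpins were neighbours on chromosome 16, 257 bases apart, both within the span of 2610318N02Rik. The Mir130a hairpin was spanned by no other listed gene. Counted from the 5′ end, mmu-miR-130a and mmu-miR-130b differed by U11A and A13G, with mmu-miR-130a given first. By contrast, mmu-miR-130a and mmu-miR-301a were equal at 12 of 22 positions, with the first 9 bases shared. The letters AGUGCAA stood at bases 2 to 8 in 7 of 1679 mature mouse miRNAs of the table (0.417%). Of those 7, mmu-miR-721 was the one non-member on the array.

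Of the 4 members, 2 were measurable in liver. The total gene signal, an intensity summed over the probes of a miRNA after background subtraction, is given here with the total error that the array software assigned to it. For mmu-miR-301a it was 35.0 ± 3.94 on the CCL4 array at 4 weeks, 22.4 ± 3.43 and 29.3 ± 3.70 at 6 weeks, and 53.4 ± 5.53 and 41.4 ± 5.58 at 8 weeks. With olive oil it was 18.8 ± 3.85, 11.7 ± 3.10 and 16.3 ± 3.32 in the same order of weeks. Every CCL4 signal of mmu-miR-301a was thus above every olive oil signal before any scaling, the closest pair being 22.4 and 18.8, and 14.3% of the 133 miRNAs detected on at least 3 arrays were separated upward in this way. For mmu-miR-130a it was 700 ± 50.8 at 4 weeks, 606 ± 44.0 and 877 ± 63.7 at 6 weeks, and 1360 ± 98.7 and 1181 ± 86.1 at 8 weeks with CCL4. With olive oil mmu-miR-130a gave 590 ± 43.0, 576 ± 42.0 and 698 ± 50.7. The CCL4 and olive oil signals of mmu-miR-130a overlapped at the low end and both CCL4 arrays of 8 weeks stood above the rest.

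Both other members were at background. The software called mmu-miR-130b detected on 0 of 8 arrays, with signals from -2.14 to 3.52 with CCL4 and from -3.34 to -0.59 with olive oil. It called mmu-miR-301b detected on 0 of 8 arrays as well, with signals from -3.48 to -2.68 and from -4.30 to -3.02. The opposite strand of the Mir130b hairpin, mmu-miR-130b*, was also detected on 0 arrays. No fold change is given for these 3, and signals at background do not show that the miRNAs were absent. The lowest signal called detected was 0.14 on the 4-week CCL4 array and 5.59 to 8.16 on the rest.

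**Figure D1:**
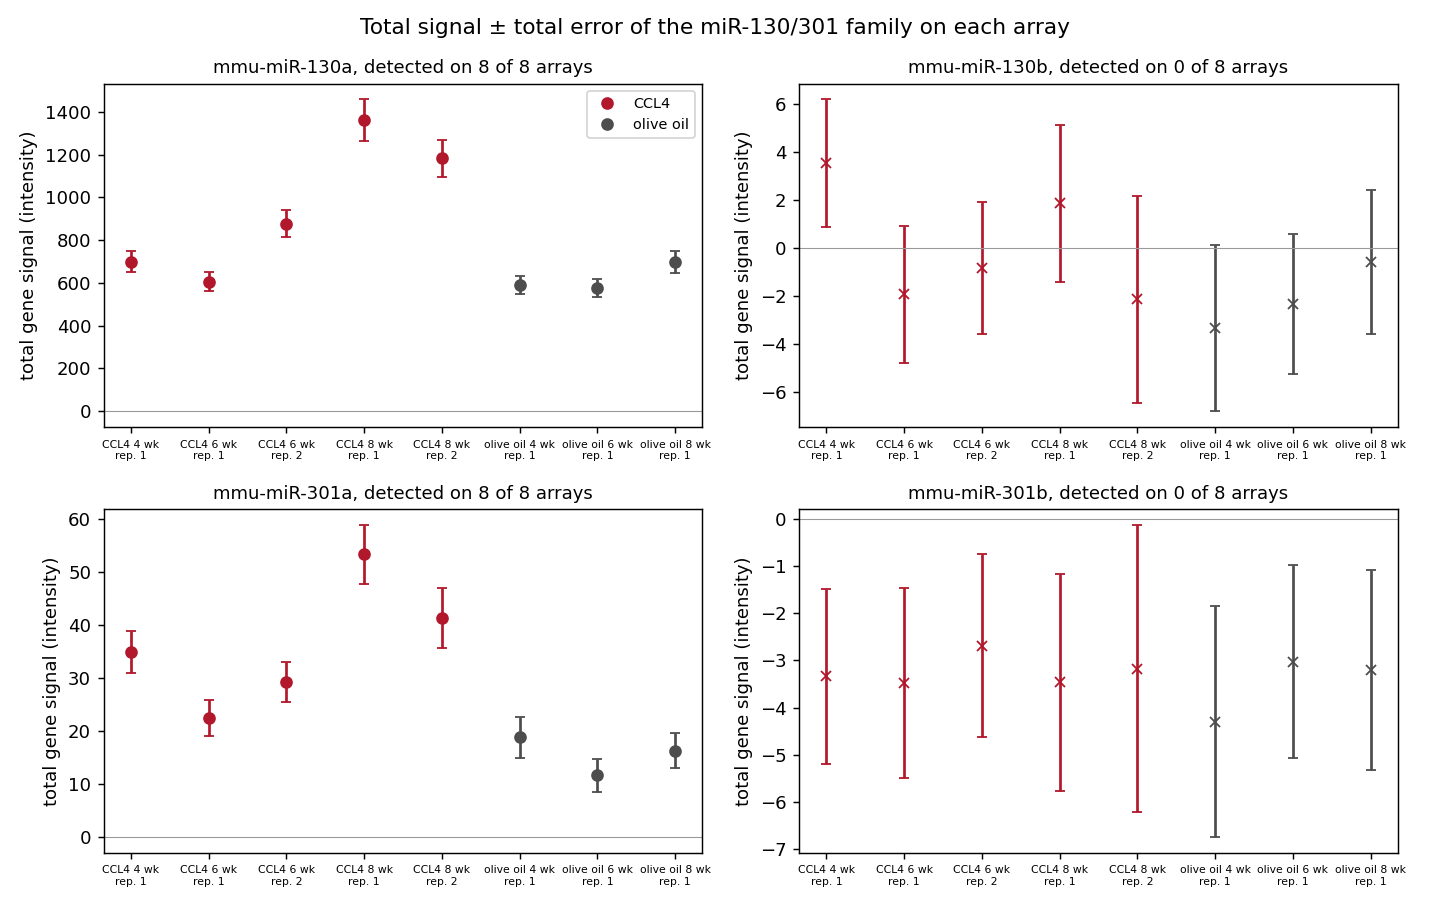
Total gene signal (intensity) of the 4 members on each of the 8 arrays, with the total error of the array software as bars; crosses mark signals not called detected, and each panel has its own scale. The signals of mmu-miR-301a lie between 22.4 and 53.4 with CCL4 and between 11.7 and 18.8 with olive oil, while mmu-miR-130b and mmu-miR-301b lie around or below 0.

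CCL4 arrays were brighter as a whole. The median signal of the 113 miRNAs detected on all arrays was 80.7 to 162 with CCL4 and 65.9 to 90.4 with olive oil, and 117 to 158 miRNAs were detected per array. Each array was therefore scaled by the 75th percentile of its own mouse miRNA signals, and the log2 of the result is called the scaled level. The hepatocyte miRNA mmu-miR-122 was detected on all 8 arrays at signals of 18497 to 35101, where the labels give liver.

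On the scaled level, mmu-miR-301a was higher on the CCL4 arrays of 6 and 8 weeks and level with olive oil at 4 weeks. Its scaled level was 1.88 at 4 weeks, 1.78 and 1.95 at 6 weeks, and 2.28 and 2.25 at 8 weeks with CCL4. With olive oil it was 1.88, 1.31 and 1.33. The 4-week olive oil array stood level with the CCL4 array of 4 weeks and above replicate 1 of CCL4 at 6 weeks, so the treatments overlapped. Above every olive oil array stood 4 of the 5 CCL4 arrays, the 4-week one by less than the rounding. The 3 highest arrays were the later CCL4 arrays, replicate 2 of 6 weeks and both of 8 weeks. The differences by week were 0.00, 0.55 and 0.93, which as folds are 1.00, 1.47 and 1.91. Over all weeks, with week as a factor, the difference was 0.54 ± 0.19 (SE, n = 5 and 3) on the log2 scale, or 1.46-fold. Without the 8-week olive oil array it was 0.32, and without either 4-week array it was 0.74.

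The scaled level of mmu-miR-130a did not keep one direction. It was 6.20 at 4 weeks, 6.54 and 6.86 at 6 weeks, and 6.95 and 7.09 at 8 weeks with CCL4, against 6.85, 6.94 and 6.75 with olive oil. The lowest value was thus a CCL4 array of 4 weeks and the highest a CCL4 array of 8 weeks, with the olive oil arrays between them. The differences by week were -0.65, -0.24 and 0.27. Over all weeks the difference was -0.17 ± 0.20 (SE, n = 5 and 3), smaller than its error, and it was positive with quantile normalization (0.24) or no scaling (0.50). It ran from -0.41 to 0.01 as each array was left out. The differences by week depended on the scale as well, and at 6 weeks they ran from -0.24 to 0.35 under the scalings tried.

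These values are read against all tested miRNAs, those called detected on at least 3 arrays. Of the 133 tested, 13.5% were called higher with CCL4 over all weeks and 35.3% lower by limma at an adjusted p under 0.05, and their median difference was -0.32. This split moved with the scale, since 18 were higher and 47 lower here, 21 and 10 with the percentile taken over miRNAs detected on all arrays, and 34 and 0 with no scaling. At 4 weeks, 16.5% of the tested miRNAs were at least 1.5-fold higher and 42.9% at least 1.5-fold lower. At 6 weeks the shares were 9.02% and 21.8%, and at 8 weeks 11.3% and 3.01%. With its 1.91-fold difference mmu-miR-301a was among the 11.3% at 8 weeks, and with its 0.64-fold level at 4 weeks mmu-miR-130a was among the 42.9%. Every CCL4 array stood above every olive oil array in 9.02% of the tested miRNAs and below in 43.6%, and neither member was in these groups. A larger difference over all weeks than that of mmu-miR-301a was found for 15 of the 133.

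**Figure D2:**
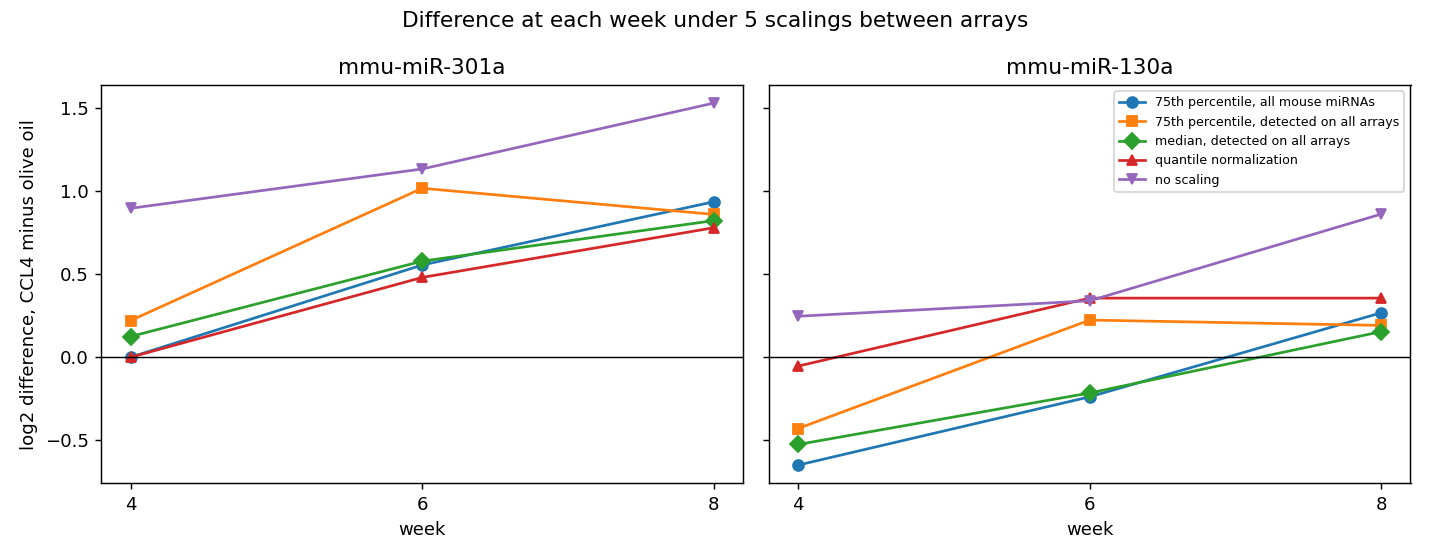
Log2 difference of CCL4 minus olive oil at each week (x axis) for mmu-miR-301a and mmu-miR-130a, with 1 line for each of 5 ways of scaling the arrays. At 6 and 8 weeks every line for mmu-miR-301a is above 0, whereas at 6 weeks the lines for mmu-miR-130a run from -0.24 to 0.35.

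The ratio of both detected members within an array does not change when an array is multiplied by a factor. The log2 ratio of mmu-miR-301a to mmu-miR-130a was -4.32 at 4 weeks, -4.76 and -4.90 at 6 weeks, and -4.67 and -4.84 at 8 weeks with CCL4. With olive oil it was -4.97, -5.62 and -5.42. The treatments did not overlap, with CCL4 above olive oil, the closest pair being -4.90 and -4.97. The members were selected on this contrast in these arrays, so the separation of the ratio is a description and carries no test. Within a week the ratio was higher with CCL4 by 0.65 at first, by 0.79 at 6 weeks and by 0.67 at the last time. Over all weeks the difference was 0.71 ± 0.067 (SE, n = 5 and 3), or 1.63-fold, and it stayed between 0.66 and 0.74 when each array was left out in turn. This SE holds only the residual spread between arrays. The total error of mmu-miR-301a was 20.3% to 26.5% of its signal with olive oil, which is more than the gap of the closest pair. The ratio to mmu-miR-130a separated the treatments in the same way for 11.5% of the 131 other tested miRNAs. The size of the ratio itself depends on the probes and is no ratio of copies. The ratio also sets a dim miRNA against a bright one. mmu-miR-301a was among the 38 dimmest miRNAs detected on all arrays, where 7 were called higher and the median difference was -0.28. mmu-miR-130a was among the 38 brightest, where 0 were called higher and the median was -0.54. The part of brightness in the difference of the ratio was not tested.

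The difference in ratio changed with the background correction and with quantile normalization. With normexp background correction and an offset of 50 it was -0.14 over all weeks, and without an offset, an alternative chosen after seeing the data, it was 0.28. An offset is added to every spot, and mmu-miR-301a was rank 100 of 113 in brightness where mmu-miR-130a was rank 18. Without the offset the difference was still below the 0.71 of the main scaling, and the cause was not tested. Quantile normalization, which changes ratios within an array, gave 0.21.

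**Figure D3:**
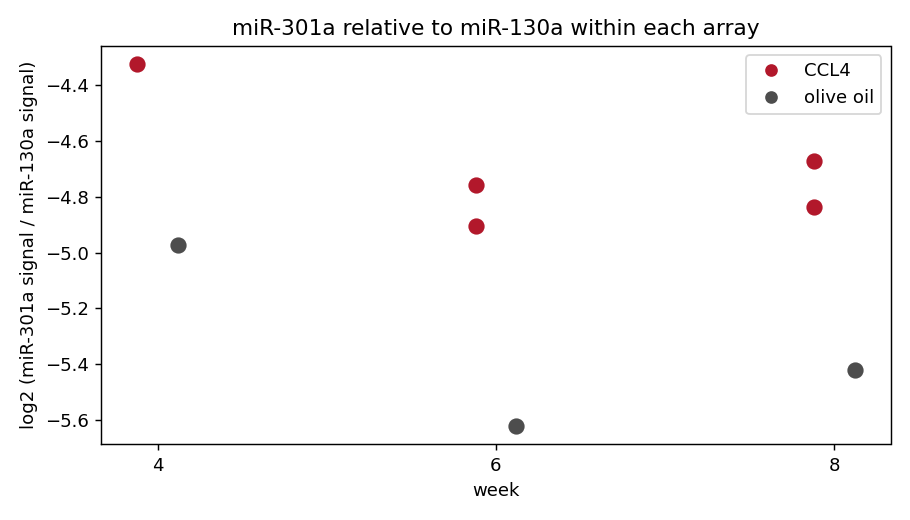
Log2 ratio of mmu-miR-301a to mmu-miR-130a signal on each array (y axis) by week (x axis), with CCL4 in red and olive oil in grey. At each week the CCL4 arrays lie above the olive oil array, from -4.90 to -4.32 against -5.62 to -4.97.

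Each member had 20 spots per array, and the probes of mmu-miR-301a were unequal. On mm9 its probes covered chr11:86926558-86926578 and chr11:86926559-86926578. The longer gave 18.1 to 43.3 with CCL4 and 10.8 to 16.7 with olive oil, above its own error on all 8 arrays, and made up 80.9% to 92.1% of the signal. The shorter gave 4.27 to 10.1 with CCL4 and 0.93 to 2.74 with olive oil, where 1 of 3 arrays was above its own error. With the longer probe alone, an alternative chosen after seeing the data, the difference of mmu-miR-301a over all weeks was 0.44 and that of the ratio 0.60. Both probes of mmu-miR-130a, at chr2:84581273-84581290 and chr2:84581273-84581291, were bright, with a coefficient of variation over spots of 1.74% to 5.83%. The total error was 7.26% to 7.29% of the signal for mmu-miR-130a, and for mmu-miR-301a it was 10.3% to 15.3% with CCL4 and 20.3% to 26.5% with olive oil.

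**Figure D4:**
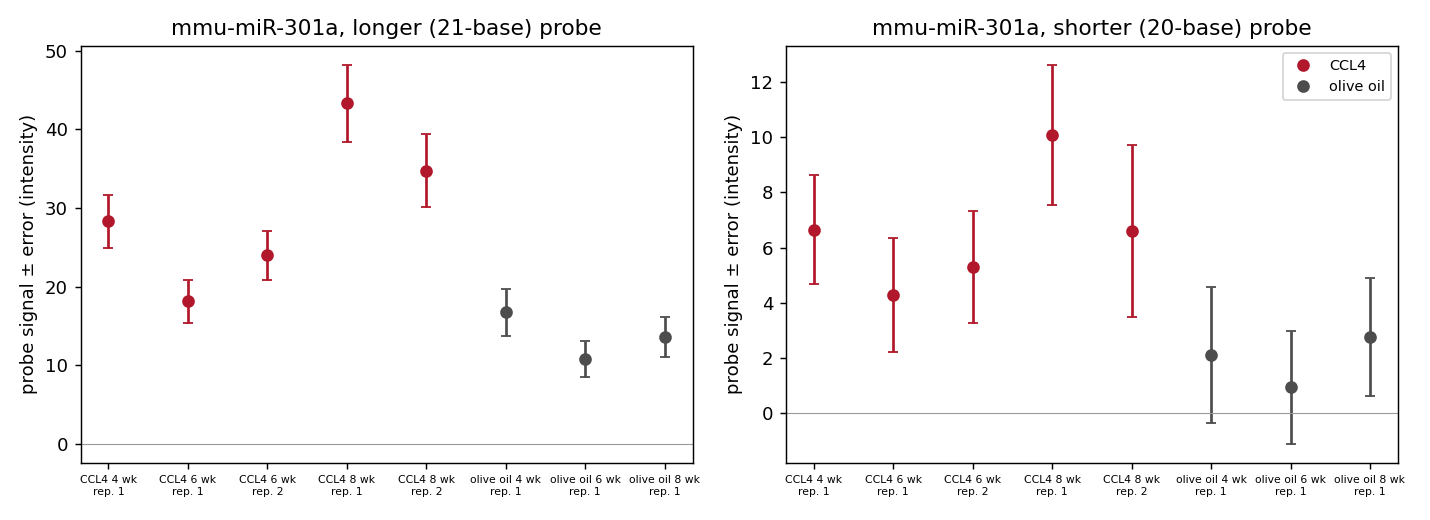
Signal of each mmu-miR-301a probe on each array (intensity) with the error of the array software as bars, CCL4 in red and olive oil in grey. The longer probe runs from 10.8 to 43.3 and the shorter from 0.93 to 10.1, with most olive oil bars of the shorter reaching 0.

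The non-member with the same seed, mmu-miR-721, was detected on 1 array. Its signal was 31.7 on the CCL4 array of 4 weeks, where all 4 of its probes were above their own error, and from -6.04 to -3.54 on the other CCL4 arrays. With olive oil it was -4.73 to -3.77. The array that detected it also had the most miRNAs detected, 158, and its part in that call was not tested.

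The related family of miR-148 and miR-152 carries the letters AGUGCA 1 base further from the 5′ end, at bases 3 to 8, as 5 of 1679 mature miRNAs did (0.298%). These sequences are shown to place the shared letters, with bases 2 to 8 in capitals.
mmu-miR-148a: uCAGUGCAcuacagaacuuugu
mmu-miR-148b: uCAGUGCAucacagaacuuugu
mmu-miR-152: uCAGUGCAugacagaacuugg
Of its 3 members, 2 were called lower with CCL4 and 0 higher, with a median difference of -0.50 beside -0.32 over all tested, of which 35.3% were called lower and 43.6% did not overlap downward. Of the 38 brightest of the 113 miRNAs detected on all arrays, mmu-miR-148a among them, 23 were called lower with a median of -0.54. Of the 38 dimmest, mmu-miR-148b among them, 10 were called lower with a median of -0.28. The scaled level of mmu-miR-148a was 6.49 to 7.31 with CCL4 and 7.47 to 7.58 with olive oil, without overlap, and its difference was -0.58 ± 0.18 (SE; limma adjusted p = 0.0232). That of mmu-miR-148b was 1.03 to 1.64 against 1.77 to 2.01, also without overlap, with a difference of -0.50 ± 0.16 (SE; limma adjusted p = 0.0249). The difference of mmu-miR-152 was -0.36 ± 0.18 (SE; limma adjusted p = 0.101). The number called lower was 0 without either 4-week array or without the 6-week olive oil array, 1 without replicate 1 of CCL4 at 6 weeks and 3 without the 8-week olive oil array. It was 3 with the median scaling, 1 with quantile normalization, and 0 with the percentile over miRNAs detected on all arrays, with normexp, with no week term, with no filter or with no scaling. With no scaling all 3 differences were above 0.

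**Figure D5:**
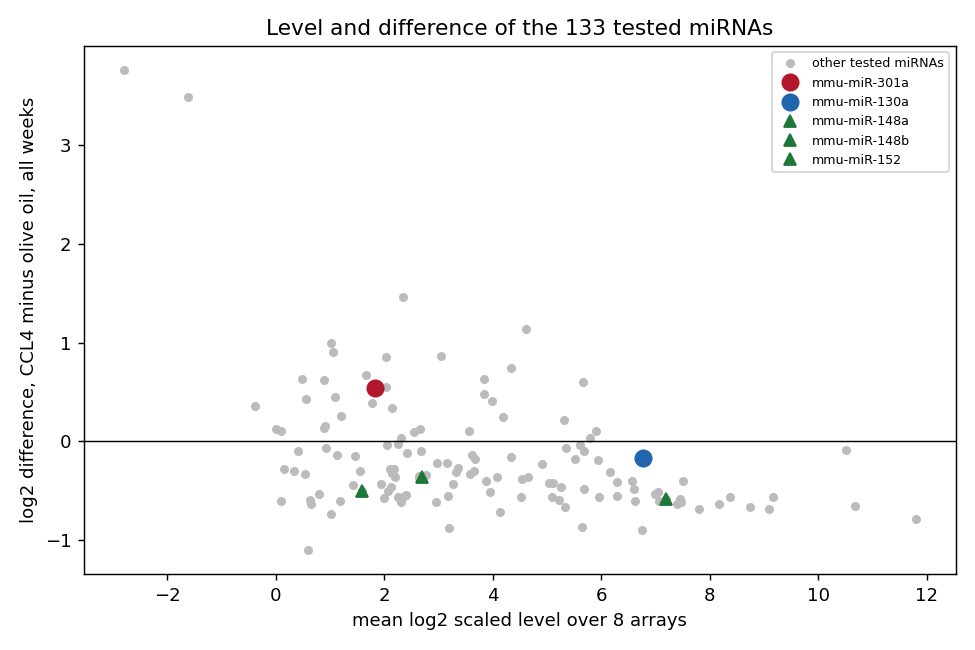
Mean log2 scaled level over the 8 arrays (x axis) and log2 difference of CCL4 minus olive oil over all weeks (y axis) for the 133 tested miRNAs, with mmu-miR-301a in red, mmu-miR-130a in blue and mmu-miR-148a, mmu-miR-148b and mmu-miR-152 as green triangles. Both detected members lie above the median of -0.32, mmu-miR-301a at 0.54 and mmu-miR-130a at -0.17.

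Other miRNAs reported to act on Pparg, and miRNAs of vessels and hypoxia, were not called. Of all tested miRNAs 13.5% were called higher and 35.3% lower, with a median of -0.32. Of the Pparg list, mmu-miR-27a (0.21) and mmu-miR-27b (-0.36), 0 of 2 were called in either direction. The limma adjusted p was 0.349 for mmu-miR-27a and 0.0585 for mmu-miR-27b, the latter close to the threshold. Of the 6 vascular and hypoxia miRNAs 4 were tested and 0 were called. The endothelial mmu-miR-126-3p was at -0.40 (limma adjusted p = 0.0671) and mmu-miR-126-5p at -0.28 (limma adjusted p = 0.158), and mmu-miR-322 was at 0.13. The hypoxia-induced mmu-miR-210, detected on 4 arrays, was at -0.10. These counts moved with the scale: with the median of miRNAs detected on all arrays 1 of the Pparg list and 2 of the vascular list were called lower, and with no scaling 1 of each was called higher. With the replicate number as a block, or with only miRNAs detected on all arrays, 1 of the vascular list was called lower, and with summed spot signals 1 of the Pparg list was.

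The miRNAs whose scaled levels followed mmu-miR-301a most closely among 112 others were mmu-miR-200b (Pearson r = 0.88), mmu-miR-497 (0.88), mmu-miR-195 (0.87), mmu-miR-199a-5p (0.85) and mmu-let-7e (0.84). For mmu-miR-130a they were mmu-miR-30e (0.93), mmu-miR-152 (0.92), mmu-miR-99a (0.89), mmu-miR-30a (0.88) and mmu-miR-203 (0.85). No miRNA was on both lists. Between mmu-miR-301a and mmu-miR-130a the correlation was 0.19 on the scaled level and 0.85 with no scaling. These are descriptions over 8 arrays that share treatment, week and scale, and the lists changed with the scale. Over the 4 other scalings 3 or 4 of the 5 were kept for mmu-miR-301a. For mmu-miR-130a 5 were kept with the median scaling, 3 with the percentile over miRNAs detected on all arrays, 2 with no scaling and 0 with quantile normalization.

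Markers of liver cell types went in different directions beside mmu-miR-301a. Of the 6 stellate and mesenchymal markers 5 were tested, 4 were called higher and 0 lower, and their summed scaled signal was 30.6 to 50.3 with CCL4 and 22.4 to 29.4 with olive oil. mmu-miR-145, one of their defining members, was detected on 0 arrays. The 4 calls were mmu-miR-214 and miRNAs named miR-199, among them both strands named after 1 hairpin (mmu-miR-199b* and mmu-miR-199b). The remaining tested marker, mmu-miR-143, was at 0.34 and was not called (limma adjusted p = 0.122). Called higher were 13.5% of all tested, 7 of the 38 dimmest and 0 of the 38 brightest. The part of brightness in the 4 calls was not tested. Of the 3 hepatocyte markers 3 were called lower, with a sum of 2328 to 4120 against 5260 to 5882. All 3 were among the 38 brightest miRNAs, of which 23 were called lower with a median of -0.54, and 35.3% of all tested were called lower. With quantile normalization, normexp, no filter or no scaling 0 of the 3 were called, and with no scaling 2 of them were above 0. Only 1 was called with the percentile over miRNAs detected on all arrays, with normexp without an offset or with no week term. The same held without either 4-week array, without replicate 1 of CCL4 at 6 weeks or without the 6-week olive oil array. The 5 tested mesenchymal markers were above 0 under each scaling. All 5 were called with no scaling, with the percentile over miRNAs detected on all arrays or without replicate 1 of CCL4 at 6 weeks. The number was 3 with quantile normalization, normexp with or without its offset, or no week term. It was 3 without either 4-week array or the 8-week olive oil array, and 2 without the 6-week one. With no filter 1 of 6 was called. With the methods' t-test after Benjamini-Hochberg 2 mesenchymal and 1 hepatocyte marker were called, and 0 after Bonferroni. Of the 5 biliary and epithelial markers 2 were tested and 1, mmu-miR-200b, was called higher, with a sum of 4.77 to 7.34 against 4.65 to 4.93, while mmu-miR-200c, mmu-miR-141 and mmu-miR-429 were detected on 0 arrays. The mmu-miR-200b call was lost with the replicate number as a block, and when any array but replicate 1 of CCL4 at 6 weeks was left out. It was also lost with quantile normalization, normexp with or without its offset, no week term or no filter. With the median scaling, the percentile over miRNAs detected on all arrays or no scaling, 2 of the 2 tested were called higher. Of the endothelial, leukocyte and erythroid markers 0 were called, with medians of -0.34, -0.03 and -0.55. The 3 erythroid markers were called lower without replicate 1 of CCL4 at 8 weeks, without the 8-week olive oil array, or when only miRNAs detected on all arrays were tested, and 2 of them with an intensity trend. Of the 2 endothelial markers 2 were called lower with the median scaling and 1 with the replicate number as a block or with only miRNAs detected on all arrays. With no scaling 1 leukocyte marker was called higher. The part of these cell types in the difference of mmu-miR-301a was not tested.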

How the data were processed

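Per the file headers, the authors made the deposited intensity values with Feature Extraction 10.5.1.1, which removes spot background and adds up a miRNA's probes; the methods name another version. Probe coordinates in the files are on mm9. The deposited series table held log2 signals with signals under 1 set to 1, within 1.107e-06 of the scanner values. Each array was scaled by the 75th percentile over its 567 mouse miRNAs, floored at 0.01 and taken to log2. The 133 miRNAs detected on at least 3 of 8 arrays were fitted with limma 3.58.1 in R 4.3.3, with week as a factor and Benjamini-Hochberg adjustment at 0.05, after testing on simulated data. The number of arrays limits the precision. The members and lists were chosen with earlier results of these data known. Named were the members, miRNAs of the same seed or hairpin, the 5 most like each detected member, up to 4 of each list by size of difference, and cell type markers. Left out are values of columns tied to no sample (0 columns). Alternatives changed scaling, floor, background correction, filter, week term, replicate block, test and each array. Figures used Python 3.11.15 and matplotlib 3.10.9. One further list of miRNAs is not reported here.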

Additional observations from a re-analysis of the deposited data

Results flagged for a closer look

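The signal of mmu-miR-721 on the CCL4 array of 4 weeks, 31.7, stood far from the other 4 CCL4 arrays, the nearest of which was at -3.54. On the same array mmu-miR-223, a miRNA of neutrophils and other myeloid cells, had a scaled level of 5.41, and the nearest CCL4 array was at 4.10. On the CCL4 array of 6 weeks replicate 1 the scaled level of mmu-let-7e was 3.63 with the nearest at 4.10, and that of mmu-miR-199b was 4.04 with the nearest at 4.63. These 4 came from 43 sets of CCL4 arrays examined. Chance alone flags about 1 set in 20 where the arrays of a set are alike, but these arrays span weeks 4, 6 and 8. Only 1 CCL4 array was of 4 weeks, so a deviation of that array cannot be told apart from a difference of its week. The difference of mmu-miR-130a between CCL4 and olive oil ran in opposite directions across weeks, at -0.65 at 4 weeks and -0.24 at 6 weeks but 0.27 at 8 weeks; the change across weeks was not tested, and with no scaling all 3 differences were positive.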

How the results depend on the processing

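A value without a test counts as moved when it shifted by at least its residual SD (0.26 for mmu-miR-301a, 0.28 for mmu-miR-130a, 0.09 for their ratio). Over all weeks mmu-miR-301a was above 0 under all 13 alternatives other than left-out arrays, from 0.21 with normexp to 1.21 with no scaling. Some of these could hardly move it. The changes of floor, which lay below its signals, the series table and the summed spot signals all left it at 0.54. mmu-miR-130a became 0.24 with quantile normalization, 0.50 with no scaling, 0.34 with normexp and 0.19 with normexp without an offset. The ratio became -0.14 with normexp, 0.28 without its offset, 0.60 with the longer probe alone and 0.21 with quantile normalization.

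At 4 weeks mmu-miR-301a became 0.89 with no scaling and 0.30 with normexp without an offset. At 6 weeks it became 1.02 with the percentile of miRNAs detected on all arrays, 1.13 with no scaling and 0.14 with normexp, and at 8 weeks 1.53 with no scaling and 0.33 with normexp. mmu-miR-130a at 4 weeks became -0.054 with quantile normalization, 0.25 with no scaling, 0.10 with normexp and 0.0081 without its offset. At 6 weeks it became 0.22 with the percentile of miRNAs detected on all arrays, 0.35 with quantile normalization, 0.34 with no scaling, 0.22 with normexp and 0.052 without its offset, and at 8 weeks 0.86 with no scaling and 0.65 with normexp. The ratio at 4, 6 and 8 weeks became 0.054, 0.12 and 0.42 with quantile normalization, 0.032, -0.075 and -0.32 with normexp, and 0.30, 0.31 and 0.25 without its offset. With the longer probe alone it was 0.51 at 4 weeks and 0.62 at 6 weeks. The causes of these shifts were not tested.

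The 18 higher calls became 34 with no scaling, 11 with normexp, 11 with no week term, 5 with no filter, 10 with the methods' t-test after Benjamini-Hochberg and 0 after Bonferroni (13 at an unadjusted p under 0.05). The 47 lower calls became 10 with the percentile of miRNAs detected on all arrays, 18 with quantile normalization, 0 with no scaling (0 unadjusted), 0 with normexp (0 unadjusted), 3 without its offset, 16 with no week term, 0 with no filter (65 unadjusted), 23 with the methods' t-test after Benjamini-Hochberg and 1 after Bonferroni. Leaving out each array gave 8 to 14 higher and 5 to 60 lower, with 8 and 5 without the 6-week olive oil array, 11 higher without the 8-week one, 7 lower without either 4-week array and 30 lower without replicate 1 of CCL4 at 6 weeks.

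Replicate number 1 is carried by an array of every group and number 2 only by CCL4 at 6 and 8 weeks, so only these pairs could be checked, and their deviations correlated at r = 0.11 over 113 miRNAs. With the replicate block the difference of mmu-miR-301a was 0.47, that of mmu-miR-130a -0.28 and that of the ratio 0.76, with 12 higher and 54 lower. Dim miRNAs such as mmu-miR-301a, at 11.7 to 53.4, lie closest to the lowest detected signals.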
